A study of Mus musculus with 12 samples.

Results

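The comparison is of mouse blastocysts that received an siRNA against Nampt (siNampt) with blastocysts that received a non-targeting siRNA (siNT), taken over both diets of the study. It uses 8 of the 12 libraries of the series, 4 labelled siNampt and 4 labelled siNT. The labels set the arm of each library, and the comparison itself was chosen with earlier results of these data known. Each library was made from polyadenylated RNA of 10 pooled blastocysts. The mice were wild type, of the outbred ICR stock. The embryos came from superovulated oocytes fertilized in vitro, were electroporated with the siRNA as zygotes between 3 and 6 hours post insemination (hpi) and were grown in KSOM medium to 96 hpi. Each arm holds 2 libraries labelled ND and 2 labelled HFD, 1 of each in batch 1 and in batch 2. The labels do not spell out the diets, and the title of the series speaks of normal weight and obese mice. The 4 libraries labelled C, the controls, are given only as levels beside the comparison, and only for some genes. Higher and lower mean siNampt relative to siNT, and do not tell which arm lay further from C. A pool mixes the sexes and cell lineages of its embryos, and nothing in the labels ties the pools to separate matings or cultures, so a p-value here weighs a difference against the spread of the pools, which may be technical. In pooled embryos, fewer cells of a type and less RNA per cell cannot be told apart.

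Nampt, also known as visfatin when it is secreted, turns nicotinamide into nicotinamide mononucleotide, the rate-limiting step of the salvage route to NAD. NAD carries electrons from glycolysis, the TCA cycle and fatty acid oxidation to the respiratory chain, and it is consumed by the sirtuin deacylases, by the PARP enzymes that build ADP-ribose chains, and by the hydrolase Cd38. The blastocyst is the stage at which an epithelium, the trophectoderm, encloses the inner cell mass and pumps the fluid of the blastocoel.

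Nampt was lower in each siNampt library than in the siNT library of the same diet and batch. Levels are in CPM (counts scaled to library size) after TMM scaling, which adjusts libraries for the makeup of their RNA. In ND embryos Nampt had 53.9 and 37.7 CPM in siNampt (batches 1 and 2), against 74.6 and 49.4 CPM in siNT. In HFD embryos it had 50.3 and 44.0 CPM in siNampt, against 61.3 and 66.0 CPM in siNT. The highest siNampt library lay above the lowest siNT library, so the arms overlapped. The means were 46.5 ± 7.11 CPM in siNampt, 62.8 ± 10.5 CPM in siNT and 54.2 ± 11.9 CPM in C (SD, n = 4 each). By library, C had 54.2 and 38.2 CPM in ND and 67.0 and 57.3 CPM in HFD (batches 1 and 2). In ND, siNampt thus lay close to C of the same batch, and siNT lay above C. In HFD, siNampt lay below C in both batches. The log2 difference was -0.44 (SE 0.14) in edgeR's quasi-likelihood fit with diet and batch as covariates, and its p after adjustment over all genes was 0.395. Leaving out 1 library at a time gave -0.53 to -0.33, the smallest without HFD_siNT replicate 2. An exact permutation test, two-sided and on log2 CPM, gave p = 0.0857 over the libraries (smallest possible 0.0286) and p = 0.125 over the pairs, which cannot give less. Per transcript length, Nampt averaged 10.98 TPM (an RSEM measure scaled to transcript length and library size) in siNampt and 13.5 TPM in siNT.

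**Figure D1:**
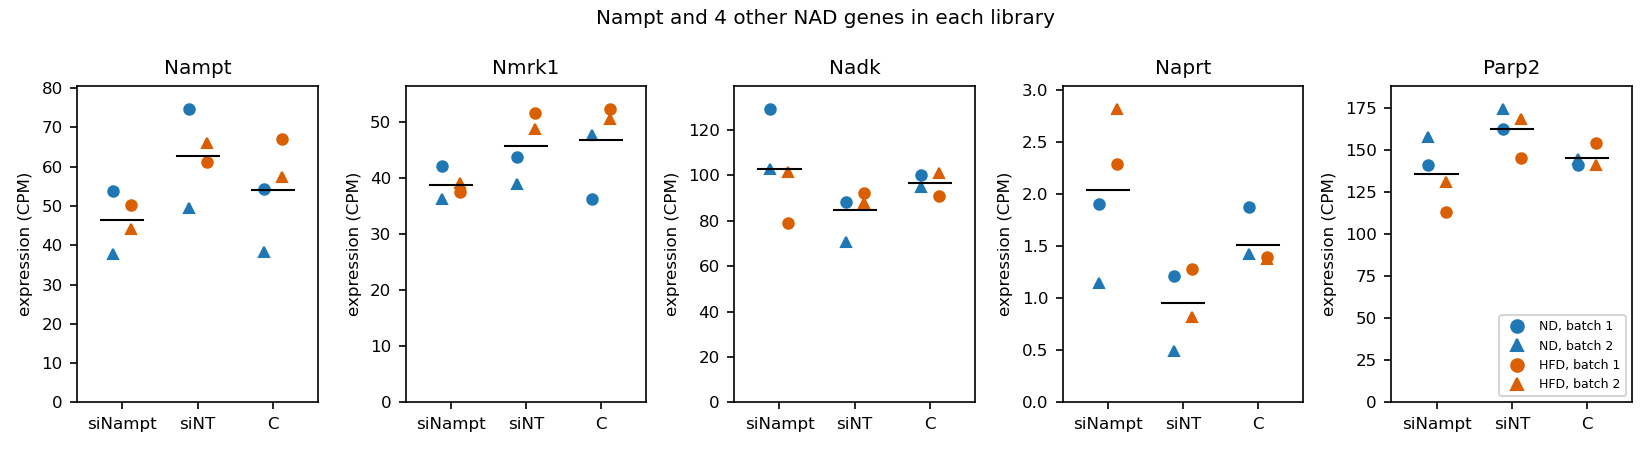
Expression in CPM of Nampt and of 4 other genes of NAD metabolism in each library, with siNampt left of siNT and C; colours give the diet, symbols the batch, and bars the mean of 4 libraries. Nampt averaged 46.5 CPM in siNampt and 62.8 CPM in siNT with overlapping libraries, and Naprt averaged 2.04 CPM and 0.951 CPM.

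Across the transcriptome, 14324 of 24411 genes had enough counts for a test, and 0 passed an adjusted p of 0.05 in edgeR's quasi-likelihood test. The smallest adjusted p was 0.323, for Tspan7. At an unadjusted p under 0.05 there were 841 genes with higher levels in siNampt (5.87% of those tested) and 800 with lower levels (5.59%). With limma on log2(TPM + 1) the split was 1723 higher and 168 lower, on a scale where the median of all genes was itself 0.08 against 0.02 in counts. DESeq2 called 27 genes among the 11269 to which it gave an adjusted p (0.24%), 16 higher (0.142%) and 11 lower (0.0976%). Within pairs, 1628 genes (11.4%) were higher in siNampt in 4 of 4 and 1467 (10.2%) were lower in 4 of 4. All 4 siNampt libraries lay above all 4 siNT libraries for 494 genes (3.45%) and below them for 395 genes (2.76%).

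Treatment accounted for 14.8% of the sum of squares of log2 CPM among the 8 libraries, where each of the 7 contrasts of the layout would hold 14.3% if they were equal. Batch held 18.2%, the product of diet and batch 16.6%, and diet 13.4%. The term for a different siNampt effect in the 2 diets passed for 0 genes in edgeR and had an unadjusted p under 0.05 for 448 genes (3.13%). The counts at an unadjusted p depended on single libraries: without ND_siNampt replicate 2 there were 478 higher and 358 lower, without ND_siNT replicate 1 there were 507 and 467, and without HFD_siNampt replicate 1 there were 1322 and 1316. Without HFD_siNampt replicate 2 there were 562 higher and 457 lower, and without ND_siNampt replicate 1 a single gene passed the adjusted threshold.

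The difference between the arms followed the base composition of the transcripts. Among the genes with at least 5 CPM, those of the decile richest in G and C (57.1 to 70.7%) had a median log2 difference of 0.26, and those of the poorest decile (29.8 to 41.6%) had -0.24. The median increased from each decile to the next. In the top decile the 4 pairs gave 0.24 and 0.27 in ND and 0.07 and 0.39 in HFD (batches 1 and 2), and in the bottom decile -0.19 and -0.26 in ND and -0.14 and -0.36 in HFD. The direction was the same in all 4 pairs, and the HFD pair of batch 1 had the narrowest span. Per library, the gap between the top and the bottom decile on the centred log2 scale was 0.12, 0.20, 0.13 and 0.48 in siNampt (ND 1 and 2, HFD 1 and 2) and -0.30, -0.34, -0.05 and -0.25 in siNT. The siNampt and siNT libraries did not overlap in this gap. In C it was 0.00 and 0.07 in ND and -0.56 and 0.07 in HFD, so that 1 control library lay beyond every siNT library. Transcript length showed a weaker pattern: the shortest decile (292 to 1019 bases) had a median of -0.18, and the other deciles lay between -0.07 and 0.05. A fit that took GC content and length into account was chosen after the data were seen. It subtracts the trend of each library over GC content and length. Its medians of -0.03 to 0.02 over the GC deciles thus follow from its making and do not test it. In that fit 360 genes were higher and 303 lower at an unadjusted p under 0.05. Of 132 genes taken for naming with a difference, not all of them printed, 84 had a difference smaller by over 1.5 times, or of opposite sign, in that fit. Such values are given as corrected. Beyond the corrected values given beside single genes and lists, the part of base composition in their differences was not tested.

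**Figure D2:**
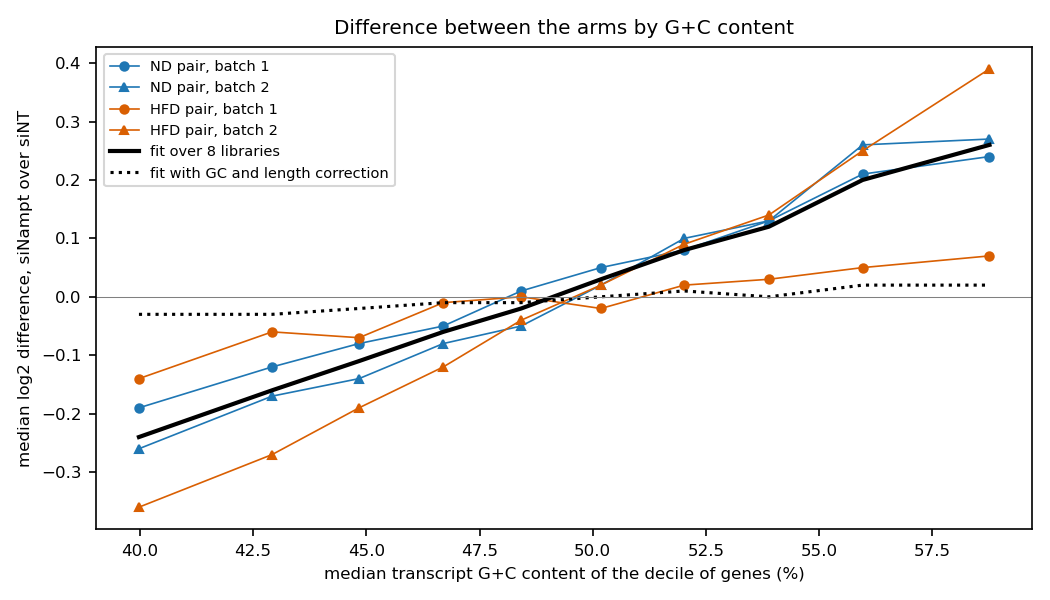
Median log2 difference between siNampt and siNT for deciles of genes by the G+C content of their transcripts (x axis, %), for the 4 pairs of libraries, for the fit over 8 libraries and for the fit with GC and length correction. The solid black line runs from -0.24 to 0.26. The dotted line stays between -0.03 and 0.02, which follows from the making of that fit.

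The contrast can be read in the transcripts themselves. For 3 genes with higher and 3 with lower levels in siNampt, and for Nampt, coding bases 301 to 360 are given, from GENCODE transcripts of GRCm38 (mm10), with each G and C in capitals. The genes were picked from the 24 of smallest p after the GC trend had been seen, as an illustration.
Mvp: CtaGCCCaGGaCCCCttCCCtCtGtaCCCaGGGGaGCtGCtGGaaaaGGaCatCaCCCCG
Eps8l2: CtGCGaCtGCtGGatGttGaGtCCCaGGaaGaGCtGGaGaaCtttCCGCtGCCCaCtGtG
Arhgef16: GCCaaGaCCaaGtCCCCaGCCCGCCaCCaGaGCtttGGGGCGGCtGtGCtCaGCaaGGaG
Nampt: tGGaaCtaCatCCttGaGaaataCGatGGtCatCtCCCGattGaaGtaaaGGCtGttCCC
Haus3: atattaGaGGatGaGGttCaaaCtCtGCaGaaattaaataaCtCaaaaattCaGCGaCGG
Depdc1a: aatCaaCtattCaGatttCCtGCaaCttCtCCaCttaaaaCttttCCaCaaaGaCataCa
Cenpq: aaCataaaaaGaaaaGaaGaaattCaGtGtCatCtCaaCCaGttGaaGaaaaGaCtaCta
Of these 60 bases, G or C made up 38 in Mvp, 35 in Eps8l2 and 40 in Arhgef16, against 27 in Nampt, 21 in Haus3, 20 in Depdc1a and 18 in Cenpq. Over the whole transcript, GC content was 58.0% in Mvp, 57.3% in Eps8l2 and 59.3% in Arhgef16. It was 40.3% in Nampt, 37.3% in Haus3, 35.8% in Depdc1a and 43.2% in Cenpq. Nampt, a protein-coding gene at chr12:32819545-32853349 on the + strand, thus lies among the GC-poor transcripts, and its log2 difference was -0.27 after the GC and length correction.

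The 24 genes of smallest p, 12 in each direction, were each on 1 side in 4 of 4 pairs. Of all genes tested 11.4% were higher and 10.2% lower in 4 of 4. The 24 were chosen by p on these same libraries, so the agreement of their pairs is no separate result. The 12 with higher levels in siNampt had a median GC content of 57.1%, and the 11 lower ones with a known sequence had 37.9%, against 50.4% over all genes tested. Of the 24, DESeq2 called 20, against 0.24% of all genes to which it gave an adjusted p, again on the same libraries. In edgeR 0 were called. For all 24 the mean of C lay between the means of siNampt and siNT. That was so for 45.8% of all genes tested and for 88.8% of those with an unadjusted p under 0.05, which were chosen on the gap between the other arms. The mean of C could lie nearer to either arm. Sqstm1 averaged 61.3 CPM in C, against 65.0 CPM in siNampt and 41.9 CPM in siNT. Depdc1a averaged 44.0 CPM in C, against 29.6 CPM in siNampt and 46.2 CPM in siNT.

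Among the genes with higher levels, Tspan7, a membrane protein of the tetraspanin family, had the widest gap. It had 16.3, 9.85, 16.5 and 8.04 CPM in siNampt (ND 1 and 2, HFD 1 and 2), against 5.50, 2.82, 2.67 and 3.98 CPM in siNT. No siNT library reached the lowest siNampt library. The log2 difference was 1.71 (SE 0.26), and 1.73 after the GC and length correction. Gpx3, the secreted glutathione peroxidase, had 60.4, 98.1, 46.2 and 118 CPM in siNampt, against 25.1, 47.9, 36.6 and 42.7 CPM in siNT. Its arms overlapped by 1 library, and its log2 difference was 1.02 (SE 0.17). Hspb1, a small heat shock protein, had 138, 185, 146 and 354 CPM in siNampt, against 80.5, 116, 91.1 and 142 CPM in siNT. Its highest value, in HFD replicate 2, was far from the others, and the log2 difference was 0.88 (SE 0.15). Slc6a13, a GABA transporter, had 31.6, 83.8, 22.4 and 74.4 CPM in siNampt, against 18.3, 42.8, 17.3 and 42.8 CPM in siNT. Its batch 2 libraries were the higher ones in both arms, and its log2 difference was 0.74 (SE 0.14).

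Sqstm1, the autophagy receptor p62, had 62.1, 76.7, 50.7 and 70.4 CPM in siNampt, against 35.7, 46.0, 43.2 and 42.8 CPM in siNT, with no overlap. Btg2, an antiproliferative gene and a p53 target, had 29.5, 50.8, 26.7 and 33.3 CPM in siNampt, against 17.8, 25.1, 19.6 and 23.3 CPM in siNT, also with no overlap. Their log2 differences were 0.62 (SE 0.13) and 0.68 (SE 0.15). The other 6 of these 12 had log2 differences of 0.44 for Eef2, a translation elongation factor, 0.61 for Mvp, the major vault protein, 0.67 for Pvrl2, an adhesion molecule of the nectin family, and 0.67 for Eps8l2, a regulator of actin. Arhgef16, a guanine nucleotide exchange factor, had 0.68, and Sh3glb2, an endophilin, had 0.86. The siNampt libraries lay above the siNT libraries in each of these 6. After the GC and length correction the same 6 estimates were 0.17 (Eef2), 0.31 (Mvp), 0.35 (Pvrl2), 0.38 (Eps8l2), 0.35 (Arhgef16) and 0.58 (Sh3glb2).

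Among the 12 genes with lower levels, Depdc1a, a protein of mitotic cells, had 35.8, 26.9, 27.5 and 28.2 CPM in siNampt, against 44.0, 46.0, 48.6 and 46.1 CPM in siNT. Cenpq, a kinetochore protein, had 49.2, 47.8, 48.8 and 35.7 CPM in siNampt, against 69.6, 77.9, 62.3 and 64.3 CPM in siNT. Haus3, a subunit of the augmin complex that seeds spindle microtubules, had 142, 150, 130 and 129 CPM in siNampt, against 200.1, 199.9, 171 and 183 CPM in siNT. In none of the 3 did the arms overlap. Their log2 differences were -0.65 (SE 0.13), -0.60 (SE 0.13) and -0.45 (SE 0.10), and -0.37, -0.39 and -0.17 after the GC and length correction. Fabp2, the intestinal fatty acid binding protein, had a log2 difference of -1.62 (SE 0.34) at low levels, 1.30, 4.06, 1.35 and 2.82 CPM in siNampt and 10.7, 12.5, 3.04 and 4.63 CPM in siNT. Zfp808, a zinc finger gene, had -0.55 (corrected -0.29), and Rsrc2, a gene with arginine and serine repeats, -0.42, both with no overlap. Gm1140 had -0.98 (corrected -0.56) and AI987944 had -0.70. The predicted genes Gm3604, Gm14295, Gm20939 and Gm10324 had -0.46, -0.67, -0.57 and -0.51 (corrected -0.20 for Gm3604, -0.25 for Gm14295 and -0.24 for Gm10324), and reads of such genes may be shared with near-identical copies, so these values are uncertain.

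**Figure D3:**
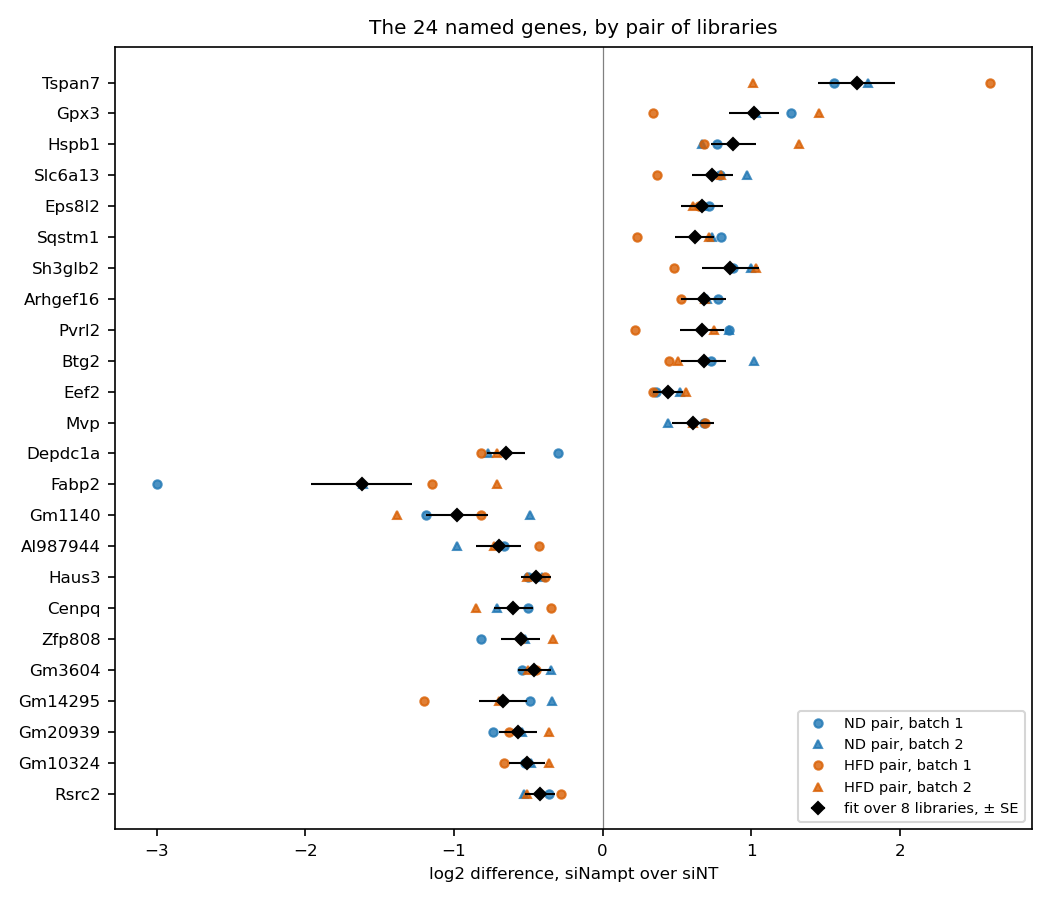
Log2 difference of siNampt over siNT for the 24 genes of smallest p, 12 higher (top) and 12 lower (bottom): coloured symbols are the 4 pairs of libraries, black diamonds the fit over 8 libraries with its SE. Every pair of every gene lies on the side of its fit, from 1.71 for Tspan7 to -1.62 for Fabp2. The genes were chosen by p on these same pairs, and 0 of them passed the adjusted threshold in edgeR.

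Outside the 24, DESeq2 called 7 further genes, named here because of that call. Jund, a subunit of the AP-1 factor, had 58.8, 76.1, 37.1 and 81.1 CPM in siNampt, against 27.8, 28.6, 45.1 and 29.4 CPM in siNT (DESeq2 adjusted p = 0.0376). Its log2 difference was 0.93, corrected 0.46. The HFD pair of batch 1 ran the other way. Cdk2, the kinase of S phase entry, had 49.1, 56.2, 53.01 and 62.4 CPM in siNampt, against 20.04, 29.3, 48.7 and 37.5 CPM in siNT, with no overlap (DESeq2 adjusted p = 0.0496). Rbm42, an RNA binding protein, had a log2 difference of 0.66 (corrected 0.35) and also no overlap. Gm14458 (2.08), Sec14l3 (1.86) and Gramd1a (1.65) were at low levels, with means of 3.27, 2.75 and 2.25 CPM in siNampt against 0.765, 0.823 and 0.783 CPM in siNT. Uty, the 7th, is Y-linked and is described with the Y-linked genes.

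The other routes to NAD had differences in both directions. Of 30 genes of NAD synthesis and salvage 22 were tested, 12 with log2 differences above 0 and 10 below. They ran from -1.02 to 4.40, and the median was 0.01, against 0.02 over all genes tested. At an unadjusted p under 0.05, 2 members were higher, Naprt and Tdo2, and 1 lower, Nampt itself (5.87% and 5.59% of all genes). Naprt, which starts NAD synthesis from nicotinic acid, was low, with 1.90, 1.15, 2.29 and 2.82 CPM in siNampt against 1.21, 0.490, 1.28 and 0.818 CPM in siNT. It was higher in 4 of 4 pairs, with a log2 difference of 1.13 (SE 0.37, edgeR adjusted p = 0.395). Nmrk1, the kinase that makes nicotinamide mononucleotide from nicotinamide riboside, was lower in 4 of 4 pairs, with 42.2, 36.2, 37.5 and 39.0 CPM in siNampt against 43.7, 38.9, 51.5 and 48.7 CPM in siNT. Its log2 difference was -0.23 (SE 0.13), and -0.06 after the GC and length correction. Nmnat1, which joins the mononucleotide to adenylate in the nucleus, had 0.14, Nadsyn1, the NAD synthetase, 0.37, and Nadk, which makes NADP, 0.28 (corrected 0.24, 0.21 and 0.16). In TPM, Nmrk1 averaged 28.1 in siNampt and 30.1 in siNT, above Nampt at 10.98 and 13.5, and Naprt 1.26 and 0.533. Tdo2, which starts the route from tryptophan, was at 0 in 1 siNampt and 3 siNT libraries and reached 1.29 CPM in ND_siNampt replicate 2. Its fitted log2 difference of 4.40 (SE 1.65) rests on 87 counts in siNampt and 10 counts in siNT.

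All 7 sirtuins, the NAD-dependent deacylases, had log2 differences above 0, with a median of 0.27, and 0 had an unadjusted p under 0.05. Over all genes tested 51.9% were above 0 and 48.1% below. The values were 0.40 (SE 0.20) for Sirt4 and 0.32 (SE 0.17) for Sirt3, both of mitochondria. They were 0.35 (SE 0.17) for the nucleolar Sirt7, 0.24 (SE 0.19) for Sirt6 and 0.01 (SE 0.18) for Sirt1. Only Sirt7 had no overlap, with 12.2, 10.9, 10.1 and 12.8 CPM in siNampt against 9.89, 7.19, 9.75 and 9.24 CPM in siNT. The estimate of Sirt1 was on the other side of 0 in several fits, down to -0.21 without HFD_siNampt replicate 1, which had 57.8 CPM against 32.4 to 35.5 CPM in the other siNampt libraries. The transcripts of this family have a median GC content of 55.2%, and its median was 0.11 after the GC and length correction, where Sirt7 had 0.11 and Sirt6 had -0.02.

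Of 27 genes of ADP-ribosylation 25 were tested, with a median of 0.00. The builders of chains showed values on both sides of 0: Parp1 had 0.15 (SE 0.13, corrected 0.01) and Parp2 had -0.27 (SE 0.10). Parp2 was lower in 4 of 4 pairs, with 141, 158, 113 and 131 CPM in siNampt against 163, 174, 146 and 169 CPM in siNT. Among the enzymes that remove ADP-ribose, Adprhl2 had 0.78 (SE 0.26) and Adprh 0.46 (SE 0.16), while Oard1 had -0.28 (SE 0.10, corrected -0.13). Adprhl2 had 8.61, 13.0, 7.66 and 7.16 CPM in siNampt against 4.39, 4.09, 6.501 and 6.08 CPM in siNT, with no overlap. The NAD hydrolase Cd38 had 2.36, 1.99, 5.26 and 2.41 CPM in siNampt against 5.98, 2.78, 4.10 and 4.09 CPM in siNT, and it was lower in 3 of 4 pairs.

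Most genes of the respiratory chain, which takes its electrons from NADH, had lower levels in siNampt, with 0 past the adjusted threshold. Of 36 subunits and assembly factors of complex I, 33 were below 0 and 2 above, with a median log2 difference of -0.21. At an unadjusted p under 0.05, 15 were lower and 0 higher, 12 were lower in 4 of 4 pairs, and 9 had all siNampt libraries below all siNT libraries (background 5.59%, 10.2% and 2.76%). Of 40 genes of complexes II to V, 34 were below 0, with a median of -0.26, and 20 were lower and 2 higher at that p. Ndufv2, a core subunit of complex I, had 527, 487, 566 and 454 CPM in siNampt against 738, 673, 608 and 699 CPM in siNT. Uqcrb, a subunit of complex III, had 929, 807, 1050 and 653 CPM in siNampt against 1275, 1263, 1104 and 1174 CPM in siNT. Cycs, the cytochrome c that carries electrons to complex IV, had 1841, 1318, 1720 and 1203 CPM in siNampt against 2201, 1936, 1878 and 2069 CPM in siNT. None of the 3 overlapped between the arms, and their log2 differences were -0.42 (SE 0.11), -0.50 (SE 0.13) and -0.43 (SE 0.12). After the GC and length correction they were -0.26 for Ndufv2, -0.02 for Uqcrb and -0.29 for Cycs.

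The respiratory pattern was present in 3 of the 4 pairs. For complex I the pair medians were -0.30 and -0.23 in ND, and 0.02 and -0.41 in HFD (batches 1 and 2), and for complexes II to V they were -0.26, -0.28, -0.02 and -0.46. The siNT library of the HFD pair of batch 1 had a fragment measure, length minus effective length, of 186 bases, against 214 to 225 in the other 7. These are short transcripts, with medians of 646 and 698 bases against 2630 over all genes tested. With the GC and length correction the medians were -0.09 for complex I and -0.04 for complexes II to V, and on log2(TPM + 1) they were -0.06 and -0.10, where the median of all genes was 0.08.

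Glycolysis, the TCA cycle and fatty acid oxidation feed the chain, and differences between their lists and its own were not tested. Of 26 glycolytic genes 20 were above 0, with a median of 0.13, and 2 were higher and 0 lower at an unadjusted p under 0.05, against 5.87% and 5.59% of all genes. Pkm, pyruvate kinase, had 105, 84.0, 87.6 and 102 CPM in siNampt against 52.0, 59.97, 79.2 and 60.6 CPM in siNT, with no overlap and a log2 difference of 0.60 (SE 0.14). Pfkl, a phosphofructokinase, had 0.69 (SE 0.23), and Ldha, lactate dehydrogenase, 0.40 (SE 0.20), both higher in 4 of 4 pairs. After the GC and length correction these 3 had 0.33, 0.40 and 0.34, and the list median was 0.06. Of 31 genes of the TCA cycle and pyruvate entry, 17 were above 0 and 14 below, with 1 higher and 4 lower at that p. Their median was 0.02, and -0.04 after the correction, the same value as for complexes II to V. Mdh1, the cytosolic malate dehydrogenase, Mpc1, a mitochondrial pyruvate carrier, and Dld, the dihydrolipoamide dehydrogenase shared by the 2-oxoacid complexes, were lower in 4 of 4 pairs, at -0.34, -0.33 and -0.31 (corrected -0.28, -0.05 and -0.14). Of 28 genes of fatty acid beta-oxidation, 4 were higher and 0 lower at that p (median 0.09, and 0.01 after the correction). Hadha, of the mitochondrial trifunctional protein, had 0.40 (SE 0.12) and Acaa1a, the peroxisomal thiolase, 0.46 (SE 0.13, corrected 0.18), both with no overlap, and Cpt1a, the carnitine palmitoyltransferase that admits fatty acids to mitochondria, had 0.35 (SE 0.15).

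Ribosomal and proteasomal genes also had medians below 0 in counts. On log2(TPM + 1), where the median of all genes was 0.08, the medians of the 3 lists lay between -0.02 and 0.06. Of 79 cytosolic ribosomal proteins 76 were below 0, with a median of -0.20. At an unadjusted p under 0.05, 25 were lower and 0 higher, against 5.59% and 5.87% of all genes. The pair medians were -0.33 and -0.33 in ND, and 0.06 and -0.16 in HFD. Rpl30 had 111, 90.6, 116 and 96.4 CPM in siNampt against 143, 129, 145 and 127 CPM in siNT, with no overlap and a log2 difference of -0.40 (SE 0.10, corrected -0.15). The median was -0.02 after the GC and length correction and -0.02 on log2(TPM + 1). Of 76 mitochondrial ribosomal proteins 58 were below 0 and 17 were lower and 1 higher at that p. Their median was -0.14 in counts, 0.02 on log2(TPM + 1) and -0.05 after the correction. Of 31 proteasome genes 23 were below 0 and 11 were lower and 1 higher, with a median of -0.07 in counts, 0.06 on log2(TPM + 1) and 0.01 after the correction. Psmc6, an ATPase of the proteasome, had 574, 573, 496 and 470 CPM in siNampt against 736, 778, 584 and 637 CPM in siNT (log2 difference -0.37, and -0.03 after the correction).

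**Figure D4:**
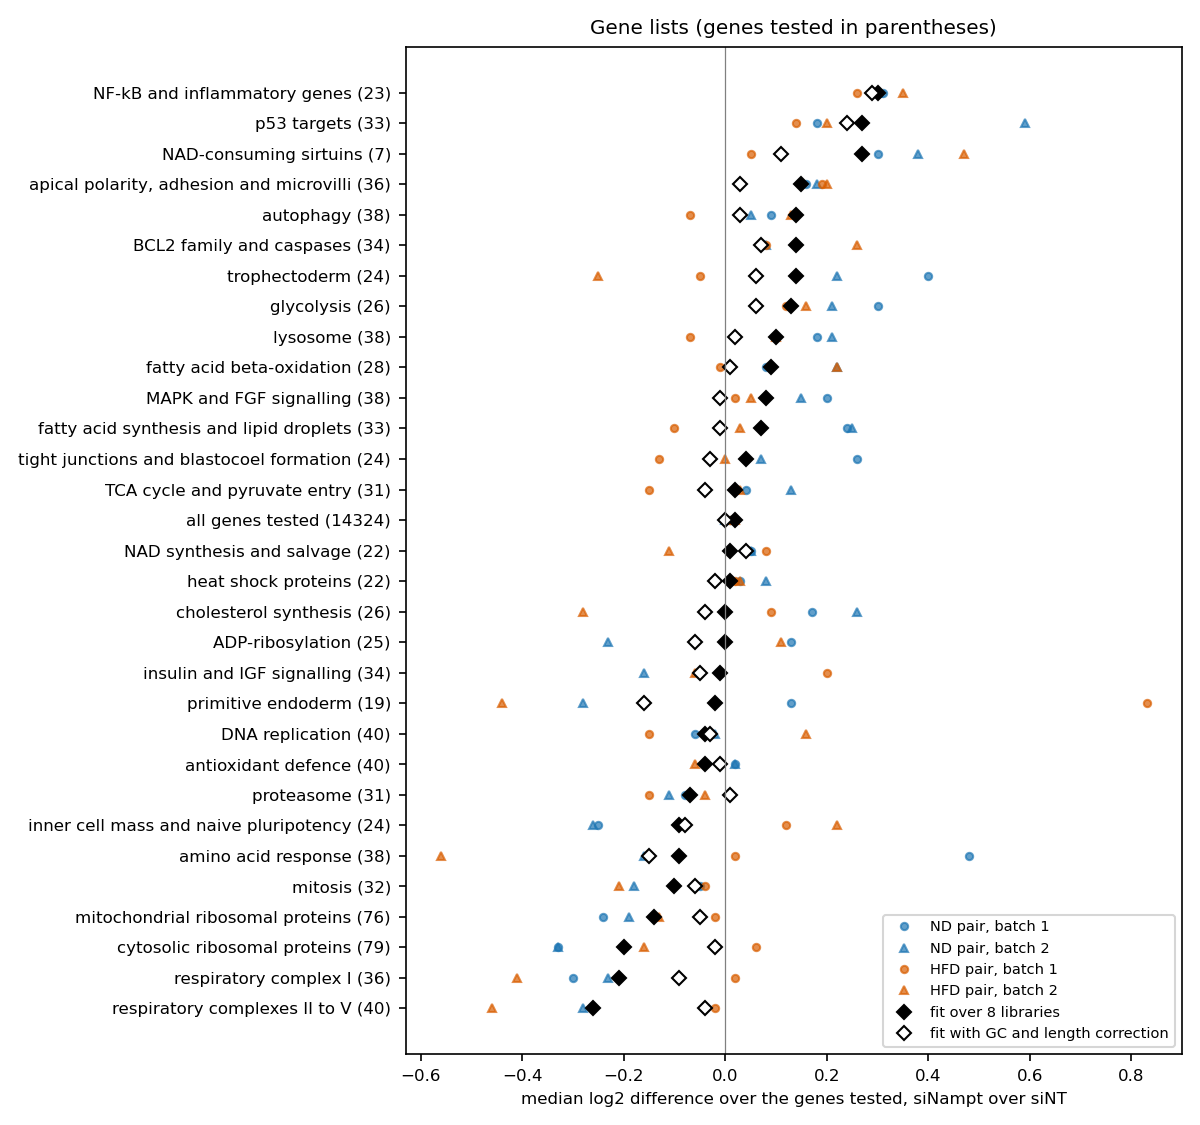
Median log2 difference of siNampt over siNT for 30 gene lists and for all genes tested, ordered by the fit over 8 libraries (black diamonds); open diamonds are the fit with GC and length correction, coloured symbols the 4 pairs. The respiratory and ribosomal lists, at -0.26 to -0.14, move to -0.09 to -0.02 with the correction, while NF-kB genes (0.30 and 0.29) and p53 targets (0.27 and 0.24) keep their place.

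The p53 targets were one of the lists whose median kept its size under the GC and length correction. Of 33 genes 28 were above 0, with a median of 0.27, and 10 were higher and 0 lower at an unadjusted p under 0.05, against 5.87% of all genes. Only 2 had no overlap between the arms (background 3.45%). Aen, a nuclease of apoptosis, had 31.1, 45.5, 28.5 and 36.6 CPM in siNampt against 20.1, 22.2, 26.9 and 27.1 CPM in siNT, and is 1 of those 2, with Btg2. Gtse1, which binds p53 in G2 phase, had 25.7, 24.9, 14.4 and 25.2 CPM in siNampt against 14.5, 12.3, 14.9 and 13.6 CPM in siNT, so that HFD_siNampt replicate 1 lay within siNT. Sesn2, a stress sensor that restrains mTORC1, had 0.65 (SE 0.26, corrected 0.35). The mean of the list on the centred log2 scale was -0.03, 0.48, 0.01 and 0.11 in siNampt (ND 1 and 2, HFD 1 and 2) and -0.31, -0.11, -0.12 and -0.03 in siNT. The siNampt libraries touched the siNT range, and ND_siNampt replicate 2 stood highest.

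The libraries also differed in their transcripts of the Y chromosome. The mean log2 CPM of 4 Y-linked genes (Ddx3y, Eif2s3y, Kdm5d and Uty) was 4.81, 3.05, 4.12 and 2.7 in siNampt and 4.73, 5.16, 4.99 and 4.01 in siNT. The lowest, HFD_siNampt replicate 2, had a p53 value of 0.11, and ND_siNampt replicate 2, with the highest p53 value, was the second lowest. All 5 genes of the Y-linked list were below 0, with a median log2 difference of -1.15. At an unadjusted p under 0.05, 4 of them were lower, against 5.59% of all genes. The X-linked RNA Xist, which female cells express, had 32.4, 169, 140 and 143 CPM in siNampt against 72.4, 83.9, 103 and 91.3 CPM in siNT. Eif2s3y, a translation factor gene on Y, had 235, 59.7, 103 and 42.4 CPM in siNampt against 215, 278, 198 and 121 CPM in siNT, and Ddx3y and Uty followed it at -1.23 and -1.27. In the ND pair of batch 1, where the Y-linked mean was 4.81 in siNampt and 4.73 in siNT, the median of the p53 targets was 0.18, and in the other pairs it was 0.59 (ND, batch 2), 0.14 and 0.20 (HFD, batches 1 and 2). With the Y-linked mean as a covariate the p53 median was 0.18, the median of complex I was -0.20, and 275 genes were higher and 169 lower at an unadjusted p under 0.05.

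**Figure D5:**
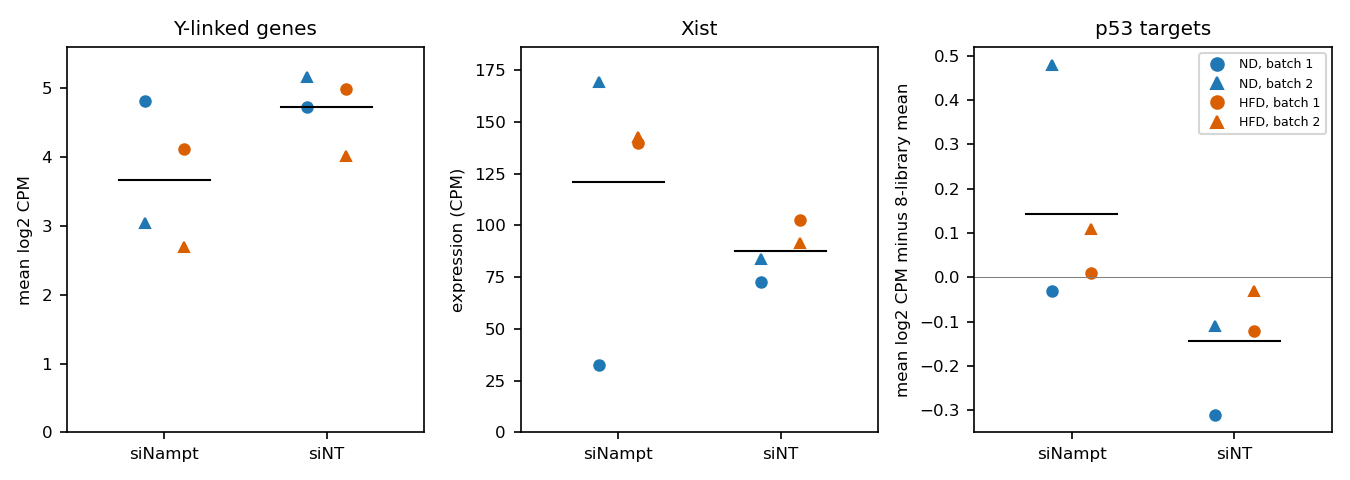
Mean log2 CPM of 4 Y-linked genes, Xist in CPM, and the mean centred log2 CPM of 33 p53 targets in each siNampt and siNT library. Colours give the diet, symbols the batch, bars the mean of 4 libraries. ND_siNampt replicate 2 has the highest value of the p53 targets, 0.48, with a Y-linked mean of 3.05, and HFD_siNampt replicate 2 has the lowest Y-linked mean, 2.7, with a p53 value of 0.11.

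Genes of apoptosis had a median of 0.14 (0.07 after the GC and length correction) over 34 genes of the BCL2 family and caspases. At an unadjusted p under 0.05, 7 were higher and 1 lower, against 5.87% and 5.59% of all genes, the lower one being Cycs. Bok, a killer of the BCL2 family, had 55.4, 51.2, 46.9 and 42.7 CPM in siNampt against 40.7, 39.5, 39.7 and 28.6 CPM in siNT, with no overlap and a log2 difference of 0.40 (SE 0.12, corrected 0.16). Bcl2l1, which protects cells, had 0.71 (SE 0.24, corrected 0.46) and was higher in 3 of 4 pairs. In the cell cycle, 11 of 32 mitotic genes were lower in 4 of 4 pairs and 3 higher, against 10.2% and 11.4% of all genes, and at an unadjusted p under 0.05 there were 5 lower and 2 higher. Their median was -0.10, and 0.04 on log2(TPM + 1), where that of all genes was 0.08. Mad2l1, of the spindle checkpoint, had -0.33 (SE 0.11, corrected -0.11), while Cdc20, which the checkpoint holds back, had 0.45 (SE 0.13, corrected 0.26) and Ccnf, cyclin F, 0.42 (SE 0.14, corrected 0.24). Their GC contents are 40.8% (Mad2l1), 55.6% (Cdc20) and 53.5% (Ccnf). Of 40 replication genes 10 were lower in 4 of 4 pairs and 2 higher, and 6 were lower and 3 higher at that p. Their median was -0.04, and 0.10 on log2(TPM + 1). Pcna, the sliding clamp, had 303, 267, 278 and 294 CPM in siNampt against 397, 364, 305 and 349 CPM in siNT (log2 difference -0.31, SE 0.11, corrected -0.12). Orc4, of the origin recognition complex, had -0.34 (SE 0.10, corrected -0.11), and Rpa3, of the single-strand binding complex, had -0.37 (SE 0.12), which turned to 0.12 after the GC and length correction.

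Genes of NF-kB and inflammation had the highest median of the 30 lists, 0.30, in 23 tested of 25. Of these 19 were above 0, and 5 were higher and 0 lower at an unadjusted p under 0.05, against 5.87% and 5.59% of all genes. The pair medians were 0.31 and 0.30 in ND and 0.26 and 0.35 in HFD, and the median was 0.29 after the GC and length correction. It was 0.13 without ND_siNT replicate 1 and 0.11 with a stricter filter on low counts. Rela, the p65 subunit of NF-kB, had 11.4, 9.29, 7.42 and 9.13 CPM in siNampt against 6.79, 5.39, 5.98 and 4.02 CPM in siNT, with no overlap and a log2 difference of 0.76 (SE 0.19, corrected 0.43). Traf2, an adaptor of TNF receptors, had 0.59 (SE 0.21, corrected 0.36) with no overlap, and Nfkbib, an inhibitor of NF-kB, had 0.48 (SE 0.18, corrected 0.27).

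Genes of the outer epithelium were counted in a list of polarity and a list of tight junctions. Of 36 genes of apical polarity, adhesion and microvilli 27 were above 0 (median 0.15), 7 were higher and 0 lower at an unadjusted p under 0.05, 12 were higher in 4 of 4 pairs and 6 had no overlap. Over all genes tested 51.9% were above 0, and 5.87% were higher and 5.59% lower at that p. Of all genes 11.4% were higher in 4 of 4 pairs, and 3.45% lay above siNT with no overlap. Pvrl2 had 44.5, 42.3, 41.5 and 42.4 CPM in siNampt against 24.6, 23.5, 35.7 and 25.1 CPM in siNT, where HFD_siNT replicate 1 stood apart. Llgl2, a polarity scaffold of the basolateral membrane, had 11.1, 12.7, 14.1 and 13.7 CPM in siNampt against 6.71, 9.64, 9.36 and 9.47 CPM in siNT. The list median was 0.03 after the GC and length correction, where Llgl2 had 0.20 and Pvrl2 0.35. For tight junctions and blastocoel formation, 13 of 24 genes were above 0 and 11 below, and 4 were higher and 0 lower at that p. Their median was 0.04, near the 0.02 of all genes, and turned to -0.03 after the correction. Slc9a3r1, a scaffold of microvilli, had 0.41 (SE 0.13, corrected 0.14), Marveld3, of tight junctions, 0.59 (SE 0.23, corrected 0.35), both with no overlap, and Cldn6, a claudin, 0.44 (SE 0.17).

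The lineages themselves were present in every library, and their lists had medians of 0.14 (trophectoderm, 24 genes), -0.09 (inner cell mass and naive pluripotency, 24 genes) and -0.02 (primitive endoderm, 19 genes), the last 2 being 0.05 and 0.10 on log2(TPM + 1), where all genes had 0.08. After the GC and length correction they were 0.06, -0.08 and -0.16 in that order. The pair medians of the trophectoderm list were 0.40 and 0.22 in ND and -0.05 and -0.25 in HFD, and those of the inner cell mass list were -0.25 and -0.26 in ND and 0.12 and 0.22 in HFD. These lists were on opposite sides of 0 in the 2 diets. The difference between diets was not tested for lists, and it passed for 0 single genes in edgeR (448 at an unadjusted p under 0.05). In the trophectoderm list 5 genes were higher and 3 lower at an unadjusted p under 0.05. Krt8, a keratin of simple epithelia, had 1901, 1863, 1451 and 1695 CPM in siNampt against 1342, 1342, 1492 and 1341 CPM in siNT (log2 difference 0.32, corrected 0.10). Tead4, which partners YAP in the trophectoderm programme, had 0.40 (SE 0.17, corrected 0.07). Dppa1, an embryonic surface protein, had -0.30 (SE 0.11) with no overlap, and Fabp3, a fatty acid binding protein, had -0.39 (SE 0.14, corrected -0.25). In the inner cell mass list 8 of 24 genes were above 0 and 16 below, and 1 was lower and 0 higher at that p, against 5.59% and 5.87% of all genes. The lower one was Tdgf1, a Nodal co-receptor, at -0.32 (SE 0.13). Gdf3, a TGF-beta ligand, had -0.31 (SE 0.15), Spp1, osteopontin, -0.41 (SE 0.22, corrected -0.22) and the pluripotency factor Pou5f1 0.26 (SE 0.18, corrected 0.11), and these 3 did not reach that p. The pluripotency factors Nanog and Sox2 averaged 72.5 and 6.99 CPM in siNampt against 75.6 and 8.54 CPM in siNT. In the primitive endoderm list 7 of 19 genes were above 0 and 12 below, and 1 was higher and 0 lower at that p. Gata4, a transcription factor of that lineage, had -0.07 (SE 0.26, corrected -0.36), and its sign depended on the setting. Pou5f1, Nanog, Sox2 and Gata4 were chosen for naming here after their values were seen. The higher one was Amn, which the visceral endoderm expresses, with 0.96 (SE 0.40, corrected 0.60) at 8.46, 4.25, 4.96 and 7.02 CPM in siNampt against 5.20, 1.28, 2.13 and 4.21 CPM in siNT.

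Autophagy and lysosome genes pointed both ways. Of 38 autophagy genes 7 were higher and 2 lower at an unadjusted p under 0.05, against 5.87% and 5.59% of all genes. Their median was 0.14, and 0.03 after the GC and length correction. Beside Sqstm1, Tfeb, the transcription factor of lysosomal genes, had 23.3, 20.99, 19.5 and 31.2 CPM in siNampt against 13.5, 13.1, 18.6 and 14.6 CPM in siNT, with no overlap (log2 difference 0.67, corrected 0.30). Fundc1, a receptor of mitophagy, had the opposite direction, with 94.8, 98.1, 87.5 and 84.2 CPM in siNampt against 131, 123, 107 and 112 CPM in siNT (log2 difference -0.38, corrected -0.13). Of 38 lysosomal genes 6 were higher and 3 lower (median 0.10, and 0.02 after the correction). Ctsd, cathepsin D, had 0.48 (SE 0.15, corrected 0.27), Grn, progranulin, 0.51 (SE 0.15, corrected 0.28), and Asah1, acid ceramidase, -0.33 (SE 0.10). Tfeb and Grn have GC contents of 61.8% and 56.1%, Fundc1 and Asah1 of 38.8% and 43.5%.

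Stress genes also split. Of 40 antioxidant genes 4 were higher and 2 lower at an unadjusted p under 0.05, against 5.87% and 5.59% of all genes. Their median was -0.04, and 0.11 on log2(TPM + 1), where that of all genes was 0.08. Txnrd1, a thioredoxin reductase, had 0.41 (SE 0.12), and Prdx1, a peroxiredoxin, had -0.32 (SE 0.12, corrected -0.09). Of 22 heat shock genes 11 were above and 11 below 0 (median 0.01, and -0.02 after the correction), with Hspb1 at 0.88, Hspa1b, an inducible HSP70, at 0.87 (SE 0.36, corrected 0.56) and Hspe1, the mitochondrial co-chaperonin, at -0.40 (SE 0.13, corrected -0.24). Of 38 genes of the amino acid response 2 were higher and 2 lower (median -0.09, -0.15 after the correction and 0.04 on log2(TPM + 1)), and the pair medians ran from 0.48 in the ND pair of batch 1 to -0.56 in the HFD pair of batch 2. Ppp1r15a, which reverses the block on translation, had 0.70 (SE 0.22, corrected 0.44), and Cth, which makes cysteine, -0.56 (SE 0.22).

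In lipid metabolism, cholesterol synthesis had a median of 0.00 over 26 genes, with Idi1, an isomerase of the pathway, at -0.60 (SE 0.17) and Mvd, the mevalonate decarboxylase, at 0.59 (SE 0.19, corrected 0.31). Fatty acid synthesis and lipid droplets had 3 genes higher and 0 lower of 33 at an unadjusted p under 0.05 (median 0.07, which turned to -0.01 after the correction). Pnpla2, the adipose triglyceride lipase, had 16.7, 17.5, 10.2 and 13.5 CPM in siNampt against 10.2, 7.14, 8.10 and 8.88 CPM in siNT (log2 difference 0.73, corrected 0.43), and Plin3, a droplet coat protein, had 0.33 (SE 0.12) with no overlap. In signalling, 6 of 38 MAPK and FGF genes were higher and 0 lower at that p, against 5.87% and 5.59% of all genes. Their median of 0.08 turned to -0.01 after the correction. Among the 6 were Rps6ka1, a kinase downstream of ERK, at 0.62 (SE 0.18, corrected 0.34) and Map2k2, which activates ERK, at 0.52 (SE 0.16, corrected 0.18). Of 34 genes of insulin and IGF signalling 2 were higher and 3 lower at that p, to be set beside the same shares of all genes (median -0.01, and 0.04 on log2(TPM + 1)). Akt1 and Akt2, the kinases of that pathway, had 0.60 (SE 0.17, corrected 0.26) and 0.50 (SE 0.15, corrected 0.27), and Eif4e, the cap-binding factor, had -0.35 (SE 0.10, corrected -0.19). Of 17 further lists 15 had medians within 0.20 of 0, and the others were markers of cumulus and granulosa cells (0.54, 8 of 22 genes tested) and of sperm (0.29, 9 of 18 genes tested).

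As a check of the material, a set of markers taken as defining for other cells reached at most 2.33 CPM in any siNampt or siNT library. The longer marker lists given below summed to more. The highest were Star, a cholesterol transporter of steroid-making cells, with up to 2.33 CPM in siNampt and 2.12 CPM in siNT, and Ovgp1, the oviduct glycoprotein, with up to 0.920 CPM in siNampt and 2.13 CPM in siNT. Zp3, of the zona pellucida, reached 1.92 CPM in siNampt and 1.64 CPM in siNT, and Col1a1, a collagen of stroma, 1.45 CPM in siNampt and 0.910 CPM in siNT. Has2, Cyp19a1, Fshr, Amh and Foxl2 of granulosa and cumulus cells reached at most 0.533, 0.125, 0.0209, 0.0414 and 0.0505 CPM, and the sperm genes Prm1 and Prm2 0.137 and 0.404 CPM. The summed level of 22 cumulus and granulosa genes was 168 to 306 CPM in siNampt and 141 to 215 CPM in siNT. Most of it was Serpine2, which averaged 211 CPM in siNampt and 168 CPM in siNT and is not confined to those cells. The 14 oviduct and stroma genes summed to 197.5 to 213.7 CPM in siNampt and 169.5 to 208.4 CPM in siNT. Most of that was Wfdc2, which averaged 192.7 and 179.1 CPM. The 29 oocyte and maternal genes summed to 1100 to 1438 CPM in siNampt and 1012 to 1184 CPM in siNT, with Khdc3 averaging 1068 and 930.5 CPM. The 15 markers of blood and immune cells summed to 18.1 to 36.7 CPM in siNampt and 18.9 to 29.9 CPM in siNT, with Hbb-b1 and Hbb-bs at 0. The haemoglobin gene Hba-a1 reached 0.898 CPM in siNampt, with 42 counts in all, and was at 0 in siNT. The part of these cells in the results was not tested. Among the markers of the blastocyst, Krt18 averaged 3291 TPM in siNampt and 2244 TPM in siNT, and Gata3 100.3 and 86.0 TPM. Gata6 averaged 43.3 and 36.5 TPM, Nanog 39.7 and 38.0 TPM, and Pou5f1 35.9 and 28.7 TPM. Others were lower in both arms. Cdx2, of the trophectoderm list, averaged 7.95 and 5.51 TPM, Gata4 5.43 and 4.75 TPM, and Sox2 3.2 and 3.52 TPM. Depth was 42473129 to 50503064 expected counts per library, and the median SE of a log2 difference at 5 CPM or more was 0.154. On simulated data the test recovered 71% of 2-fold and 94% of 4-fold changes with 2 false calls, and smaller changes were not simulated. Whether these rates hold for the measured libraries was not tested. There Tspan7, with a log2 difference of 1.71 and no overlap, was not called (edgeR adjusted p = 0.323).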

How the data were processed

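Libraries were made with the SMART-Seq v4 PLUS kit, per the labels' protocols. The authors used STAR 2.7.10, RSEM 1.2.28 and the build mm10, per the submitters' processing notes, and other settings are not given in the sources used here. Per the file headers, the tables hold the deposited expected counts and the deposited TPM values. The TPM values served only for an alternative and for levels between genes. The deposited length and effective length gave a measure of fragment size. The FPKM values were not used. Expected counts (6.43% not whole) were rounded. Strand is not stated, so overlapping antisense genes cannot be told apart.

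Genes were filtered with filterByExpr (minimum count 10) and tested in edgeR 4.0.16 under R 4.3.3 (TMM, quasi-likelihood, two-sided) on batch, diet and treatment, with Benjamini-Hochberg adjustment over 14324 genes. The batch tag of the labels equals the replicate number, which pairs libraries, and the block was in the model. The correlation of replicate deviations between groups was -0.052 to 0.223, above 0.1 in 2 of 6 pairs of groups. Alternatives were DESeq2 1.42.0, limma 3.58.1 on log2(TPM + 1) or log2(TPM + 0.1), RLE factors, other filters (none, or 5 CPM in 4 libraries), no block, all 12 libraries, leaving out each library, and loess offsets for length or a Y-linked covariate. Offsets for GC and length together were added after the data were seen. GC content came from GENCODE transcripts for 98.5% of the genes tested. The method was tested on simulated data.

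The comparison, its members and the 48 gene lists were chosen with earlier results of these data known. Lists were described by counts and medians, without a test. Named genes are Nampt, the 12 genes of smallest p in each direction with a mean of at least 5 CPM, and up to 3 members of smallest p per list. Nmrk1, Nmnat1, Nadsyn1, Nadk, Sirt1, Sirt6, Parp1, Parp2, Cd38, Xist, the genes called by DESeq2 alone and the lineage markers were named outside this rule.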

Additional observations from a re-analysis of the deposited data

Results flagged for a closer look

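In 23 of 360 groups of 4 libraries, 1 library stood apart from the other 3 by Dixon's criterion, which chance alone meets in about 1 group in 20. Of these, 8 genes and 1 list were in siNampt. Depdc1a had 35.8 CPM in ND_siNampt replicate 1, against 26.9 to 28.2 CPM in the other siNampt libraries, and Cth had 62.8 CPM there, against 38.5 to 40.8 CPM. In HFD_siNampt replicate 1, Sirt1 had 57.8 CPM (32.4 to 35.5 CPM in the others), Cd38 5.26 CPM (1.99 to 2.41 CPM), Gtse1 14.4 CPM (24.9 to 25.7 CPM), and the mean of the proteasome list was -0.21 on the centred log2 scale (0.00 to 0.03). In HFD_siNampt replicate 2, Cenpq had 35.7 CPM (47.8 to 49.2 CPM), Marveld3 5.78 CPM (3.30 to 3.64 CPM) and Mov10, an RNA helicase, 21.3 CPM (13.4 to 14.0 CPM).

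Among the siNT libraries, HFD replicate 1 stood apart most often. Pvrl2 had 35.7 CPM there (23.5 to 25.1 CPM in the others), Krt8 1492 CPM (1341 to 1342 CPM), Akt1 23.6 CPM (14.7 to 15.7 CPM), Mov10 14.1 CPM (10.6 to 11.1 CPM), Jund 45.1 CPM (27.8 to 29.4 CPM), Pou5f1 46.8 CPM (26.3 to 29.6 CPM), and the mean of complex I was 0.01 (0.13 to 0.14). In HFD_siNT replicate 2, Gm20939 had 24.2 CPM (27.6 to 28.1 CPM), Bok 28.6 CPM (39.5 to 40.7 CPM), Cpt1a 14.5 CPM (19.8 to 20.5 CPM), Adipor1, an adiponectin receptor, 129 CPM (112 to 114 CPM), and Tdo2 0.234 CPM (0 in the others). In ND_siNT replicate 1, Llgl2 had 6.71 CPM (9.36 to 9.64 CPM) and the mean of the cumulus and granulosa list was 0.31 (-0.25 to -0.17). For 5 of 48 lists both ND pairs were on one side of 0 and both HFD pairs on the other, and the difference was not tested for lists. The median of the trophectoderm list was -0.11 in HFD and 0.32 in ND (HFD minus ND -0.43), that of the inner cell mass list 0.14 and -0.22 (0.36), and that of antioxidant defence -0.06 and 0.02 (-0.08). That of nodal, BMP and SMAD genes was 0.10 in HFD and -0.18 in ND (0.28), and that of the cumulus and granulosa list 0.20 and -0.45 (0.65), with 8 genes tested. For single genes the difference between diets was tested, and edgeR called 0 of 14324 genes and 448 had an unadjusted p under 0.05.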

How the results depend on the processing

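At the adjusted threshold edgeR called 0 genes in every setting except without the filter, where it called 11, and without ND_siNampt replicate 1 (0 to 1 over the 8 libraries left out in turn), and DESeq2 called 27. The counts at an unadjusted p under 0.05, 841 higher and 800 lower, were 1723 and 168 on log2(TPM + 1), 1699 and 166 on log2(TPM + 0.1), 360 and 303 with the GC and length correction, and 275 and 169 with the Y-linked covariate. Leaving out a library gave 478 to 1322 higher and 358 to 1316 lower. Without the replicate block they were 850 and 765, and dropping the block changed no call. The log2 difference of Nampt stayed below 0 in all 19 settings. Of 570 medians of lists under an alternative, 501 moved by less than the spread between pairs. That spread was 0.18 for complex I and 0.18 for the sirtuins. Their medians moved under the GC and length correction from -0.21 to -0.09 and from 0.27 to 0.11, by less than that spread. The spread is one between libraries, which a refit of the same libraries does not carry. A move within it is therefore not shown to be negligible. Of 30 lists 13 had a median of the same sign in every setting. The cause was not tested where a median moved. On log2(TPM + 1), where the median of all genes was 0.08, the medians moved to 0.11 (NAD synthesis), 0.02 (mitochondrial ribosomal proteins), 0.06 (proteasome), 0.22 (apical polarity), 0.10 (replication), 0.04 (mitosis), 0.13 (heat shock), 0.11 (antioxidant defence), 0.23 (autophagy) and 0.16 (NF-kB). On log2(TPM + 0.1), where the median of all genes was 0.14, these 10 had 0.14, 0.02, 0.06, 0.29, 0.10, 0.04, 0.16, 0.11, 0.27 and 0.42 in the same order, glycolysis and BCL2 genes had 0.25 each, lysosome and MAPK genes 0.24 each, and beta-oxidation 0.21. With the GC and length correction the medians were -0.04 (complexes II to V), -0.05 (mitochondrial ribosomal proteins), 0.01 (proteasome), 0.03 (apical polarity), -0.02 (heat shock) and 0.03 (autophagy). With the length correction alone they were -0.08 (complexes II to V), -0.06 (heat shock), 0.02 (antioxidant defence) and 0.26 (NF-kB). With the Y-linked covariate they were 0.17 (ADP-ribosylation), 0.20 (apical polarity), 0.00 (mitosis), 0.15 (insulin and IGF) and 0.23 (MAPK). Apical polarity had 0.13 with RLE factors and DESeq2, and 0.17 with the stricter filter, without the replicate block and with all 12 libraries, and NF-kB genes had 0.11 with the stricter filter and 0.37 with all 12 libraries. Leaving out a library gave -0.06 to 0.12 for NAD synthesis, 0.06 to 0.22 for glycolysis, -0.14 to -0.03 for the proteasome, 0.14 to 0.19 for apical polarity, -0.02 to 0.07 for heat shock, 0.04 to 0.19 for autophagy, 0.03 to 0.22 for beta-oxidation and 0.13 to 0.42 for NF-kB. Of 132 genes taken for naming with a difference, not all of them printed, 128 had the same sign in every setting. Sirt1 had 0.00 with RLE factors and with DESeq2, -0.05 with the length correction and -0.21 to 0.14 when a library was left out, and with the GC and length correction Sirt6 had -0.02 and Rpa3 0.12. Gata4 had 0.01 with all 12 libraries, 0.10 on log2(TPM + 1), 0.11 on log2(TPM + 0.1), 0.06 with the Y-linked covariate and -0.39 to 0.12 when a library was left out.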
